A study of Mus musculus with 27 samples.

Results

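The interferon-induced gene families were followed in the mouse uterus: the genes whose names on the array begin with Ifit, Oas, Gbp or Irf, or with Ifi and a digit, together with the Ifitm genes that Ifit takes in and with Mx1, Mx2, Isg15, Isg20, Rsad2 and Bst2. This name rule found 51 genes on 73 probes among 27670 genes, and 49 of the 51 passed the filter on dim probes, as did 21866 genes in all. Ifi202b and Oas1h did not pass. The 51 genes were 12 Oas genes, 10 Irf genes, 10 Ifi genes, 6 Ifitm genes, 4 Gbp genes, 3 Ifit genes and 6 single genes. Names are those of the array's design; its Gbp1 and Gbp4 are today Gbp2b and Gbp3 and carry those names here. A gene with such a name today but not on the array, such as Irf9, was not a member.

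RNA came from the uterus of ovariectomised females aged 8 weeks, of the strain C3H/HeJ (C3H), of the F1 cross of C57BL/6 and C3H/HeJ (F1), and of C57BL/6 (B6). After 1 to 2 weeks of rest, the animals received 17β-estradiol (E2, 40.0 µg/kg by intraperitoneal injection in 0.1 ml saline with 0.25% ethanol) and were killed at 2 or 24 h, or received the ethanol and saline vehicle alone. Each of the 9 groups of strain and treatment had 3 one-colour arrays, 27 in all, and no time after injection is stated for vehicle samples. Ovariectomy removes the main source of the animal's own estrogen and was common to all groups. The labels speak of tissue from 3 animals per treatment group without tying arrays to animals, so the p-values measure the spread between these samples.

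Interferons bind receptors at the cell surface and, through the Jak kinases and the STAT factors, switch on a shared set of genes whose promoters carry the interferon-stimulated response element. Their products detect viral RNA (the oligoadenylate synthetases of the Oas family), bind it (Ifit), block entry or release of virus particles (Ifitm, Bst2), or attack the vacuoles of intracellular microbes (Gbp); Irf proteins are transcription factors that act upstream and downstream of the interferons. The uterus is known for a constitutive type I interferon, interferon epsilon, made by its epithelium under hormonal control.

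The promoters of 6 members are shown because each belongs to a gene whose level carried a result: Ifit3 and Rsad2 were lower at 2 h, Oas1a, Isg15 and Bst2 were higher at 24 h, and Gbp2b separated the strains. Each line gives the 250 bases before the transcription start (RefSeq, build GRCm38.p6), written 5′ to 3′ on the strand of the gene, and capitals mark matches to the response element core GAAANNGAAA on either strand, overlapping matches being joined.
Ifit3 (chr19:34583279-34583528, plus strand): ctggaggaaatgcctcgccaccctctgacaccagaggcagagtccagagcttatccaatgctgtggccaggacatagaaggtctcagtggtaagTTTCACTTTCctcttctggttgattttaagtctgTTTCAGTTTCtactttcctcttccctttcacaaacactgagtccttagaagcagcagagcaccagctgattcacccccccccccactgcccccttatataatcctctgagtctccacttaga
Rsad2 (chr12:26456453-26456702, minus strand): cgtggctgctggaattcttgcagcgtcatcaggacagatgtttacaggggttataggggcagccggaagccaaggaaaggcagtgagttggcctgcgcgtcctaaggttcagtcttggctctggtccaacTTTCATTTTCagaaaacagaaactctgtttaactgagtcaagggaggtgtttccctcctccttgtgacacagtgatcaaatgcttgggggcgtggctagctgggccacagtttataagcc
Oas1a (chr5:120907526-120907775, minus strand): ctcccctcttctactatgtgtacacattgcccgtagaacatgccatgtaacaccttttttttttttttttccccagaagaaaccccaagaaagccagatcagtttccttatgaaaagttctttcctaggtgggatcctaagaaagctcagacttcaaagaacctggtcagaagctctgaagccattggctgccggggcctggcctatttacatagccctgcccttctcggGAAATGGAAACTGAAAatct
Isg15 (chr4:156200819-156201068, minus strand): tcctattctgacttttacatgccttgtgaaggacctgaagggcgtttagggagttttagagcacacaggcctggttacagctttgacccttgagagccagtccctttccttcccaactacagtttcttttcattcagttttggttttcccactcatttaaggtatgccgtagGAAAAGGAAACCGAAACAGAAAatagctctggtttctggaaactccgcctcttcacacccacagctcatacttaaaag
Bst2 (chr8:71537473-71537722, minus strand): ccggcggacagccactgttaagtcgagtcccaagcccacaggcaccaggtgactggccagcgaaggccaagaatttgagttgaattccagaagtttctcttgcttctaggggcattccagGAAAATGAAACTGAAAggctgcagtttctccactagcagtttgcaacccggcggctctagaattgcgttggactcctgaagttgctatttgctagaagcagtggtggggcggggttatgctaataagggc
Gbp2b (chr3:142594597-142594846, plus strand): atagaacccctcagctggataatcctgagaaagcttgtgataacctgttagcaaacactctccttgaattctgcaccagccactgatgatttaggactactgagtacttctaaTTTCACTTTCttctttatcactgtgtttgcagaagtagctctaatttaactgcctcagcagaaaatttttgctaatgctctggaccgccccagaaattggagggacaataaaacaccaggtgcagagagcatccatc
Isg15 held 3 matches, Ifit3, Oas1a and Bst2 held 2 each, and Rsad2 and Gbp2b held 1. RefSeq's table gave a promoter for 41 of the 51 members, and 16 of the 41 (39.0%) held the core in these 250 bases, against 821 of all 27025 genes with a promoter (3.04%). The 6 shown all held it and so do not stand for the members at large. Ifit2 and Oasl1, whose levels also carried a result, had a promoter without a match. Of the members lower at 2 h in all strains (described below), 7 of the 15 with a promoter held it, and of the members higher at 24 h in all strains 6 of 12 held it. The pattern TTCNNNGAA, the core of STAT sites and its own reverse complement, was in 11 of the 41 members (26.8%) and in 7.18% of all promoters. The full palindrome of the estrogen response element, GGTCANNNTGACC, was in 0 of the 41 and in 17 of all promoters (0.0629%). A match describes the letters of the window and is not a site.

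Levels are log2 of the deposited processed signal minus the array's 75th percentile, so 0 is the brightness of the probe at that percentile, and a level of one probe was not set against that of another. The 75th percentile lay between 1148 and 1483 intensity units, and 72.4% to 79.4% of probes were well above background. All 6 marker genes of uterus (Esr1, Pgr, Hoxa10, Hoxa11, Wnt7a and Foxa2) were well above background on every array. One array stood apart for these genes. In replicate 1 of B6 vehicle, 37 of the 49 members lay more than 0.5 (log2) above the mean of the other 2 B6 vehicle arrays and 0 lay as far below, with a median of 0.99; the next array by this count had 9. Over all genes another array, replicate 1 of C3H at E2 24 h, had the most genes over 1 above the other arrays of its group, 1375, against 828 for replicate 1 of B6 vehicle. At this larger cut of 1 the members numbered 0 of 49 on the C3H array and 24 of 49 on replicate 1 of B6 vehicle. Among members measured on all 3 arrays the largest gaps were those of the guanylate-binding proteins Gbp2 (3.51) and Gbp3 (2.78), followed by Ifi47 (2.65), a GTPase of the same kind of defence. Gbp2b, another guanylate-binding protein, was well above background on that array alone of the 3, so its gap has no exact size. Marker genes of immune cells lay over 0.5 higher on that array too: 5 of 6 T cell genes (median 1.73), 8 of 8 natural killer cell genes (1.30), 4 of 6 B cell genes (1.26), 6 of 7 macrophage genes (0.76) and 4 of 4 neutrophil genes (1.95). In shorter lists 2 of 5 dendritic cell genes (0.481), 2 of 4 plasmacytoid dendritic cell genes (0.625) and 2 of 3 eosinophil genes (0.855) did. No marker of epithelium (0 of 7), stroma (0 of 6), smooth muscle (0 of 6) or endothelium (0 of 7) did. Against the other groups, its summed T cell (1.863) and natural killer cell (3.091) levels were above every array. Its summed B cell level (2.296) lay below every C3H vehicle array (2.709 to 3.405). Arrays at E2 2 h passed its neutrophil level (1.055, against up to 1.871 in B6) and its macrophage level (7.588, against up to 7.715 in C3H). The part of these cells in the member values was not tested, and in whole tissue a change in the number of cells of a type cannot be told apart from a change in RNA per cell. The counts over all members in the comparisons with vehicle and between strains are given with and without that array, as are family counts and single values where it moved them by over 1.5 times or ended a call. Because all groups share one estimate of the spread, leaving that array out also changes calls in C3H and F1. It does so through the standard error (SE) and the adjustment of p-values, and their log2 changes stay the same. For C3H at 24 h against 2 h the SE fell from 0.53 to 0.10 for Gbp2 but rose from 0.085 to 0.086 for Oas1c.

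**Figure D1:**
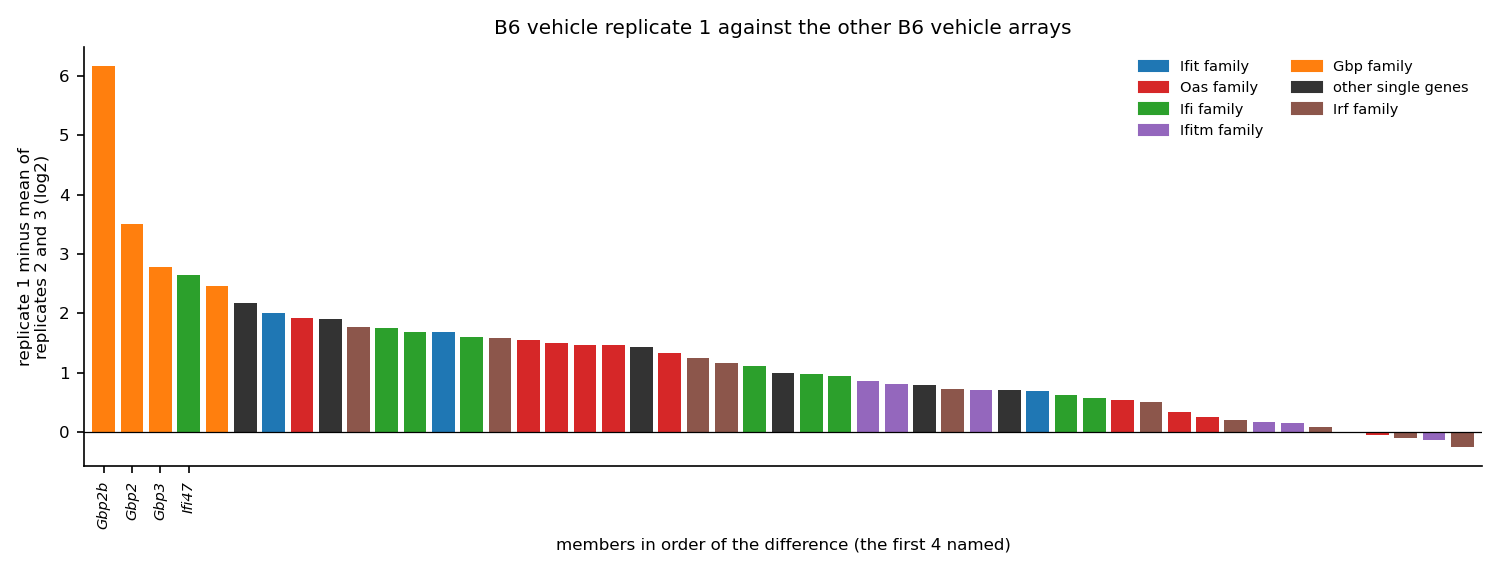
Replicate 1 of B6 vehicle against the mean of the other B6 vehicle arrays: the bars give the log2 difference of each of the 49 members, coloured by family, with the first 4 named. Their median is 0.99 and 37 bars pass 0.5; the bar of Gbp2b is set against arrays on which its probe was not well above background, so its height is not an exact size.

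The first comparison asks what E2 did within 2 h. Members fell more often than they rose in every strain: with limma and Benjamini-Hochberg adjustment over all 21866 genes (adjusted p under 0.05, called changed here), 31 of 49 were lower in B6, 22 in C3H and 23 in F1, where 33.1%, 35.5% and 35.5% of all tested genes were lower. Higher were 1 member in B6, 5 in C3H and 4 in F1, where 23.1%, 24.8% and 23.6% of all tested genes were higher. The members' median log2 change was −0.68 in B6 (−0.33 without the outlying vehicle array), −0.39 in C3H and −0.45 in F1, whereas that of all tested genes was −0.08, −0.10 and −0.10. Without that array 23 members were lower and 7 higher in B6 (31.1% and 22.1% of all tested genes), 28 and 8 in C3H, 28 and 6 in F1. A core of 20 members was lower in all 3 strains, where 27.1% of all tested genes were; without the array it was 22, the same 20 with Gbp2 and Gbp3 added. Among the 20 were Ifit2, Ifit3, Rsad2, Mx2, Gbp5, Oas1b, Oas1c, Oas1e, Ifitm1, Ifitm2, Ifitm3, Ifi203, Ifi204, Ifi205 and Irf2. The count of members called in either direction, 32 in B6 and 27 in F1, depended on the fit. In B6 it was 20 with only the B6 groups in the fit. With slide as a fixed term it was 21 in B6 and 16 in F1. Within a slide that held both groups, the member median was −0.58 in B6 (1 E2 array, 3 vehicle arrays) and −0.35 in F1 (3 and 1). The B6 value includes the outlying vehicle array and was not computed without it.

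**Figure D2:**
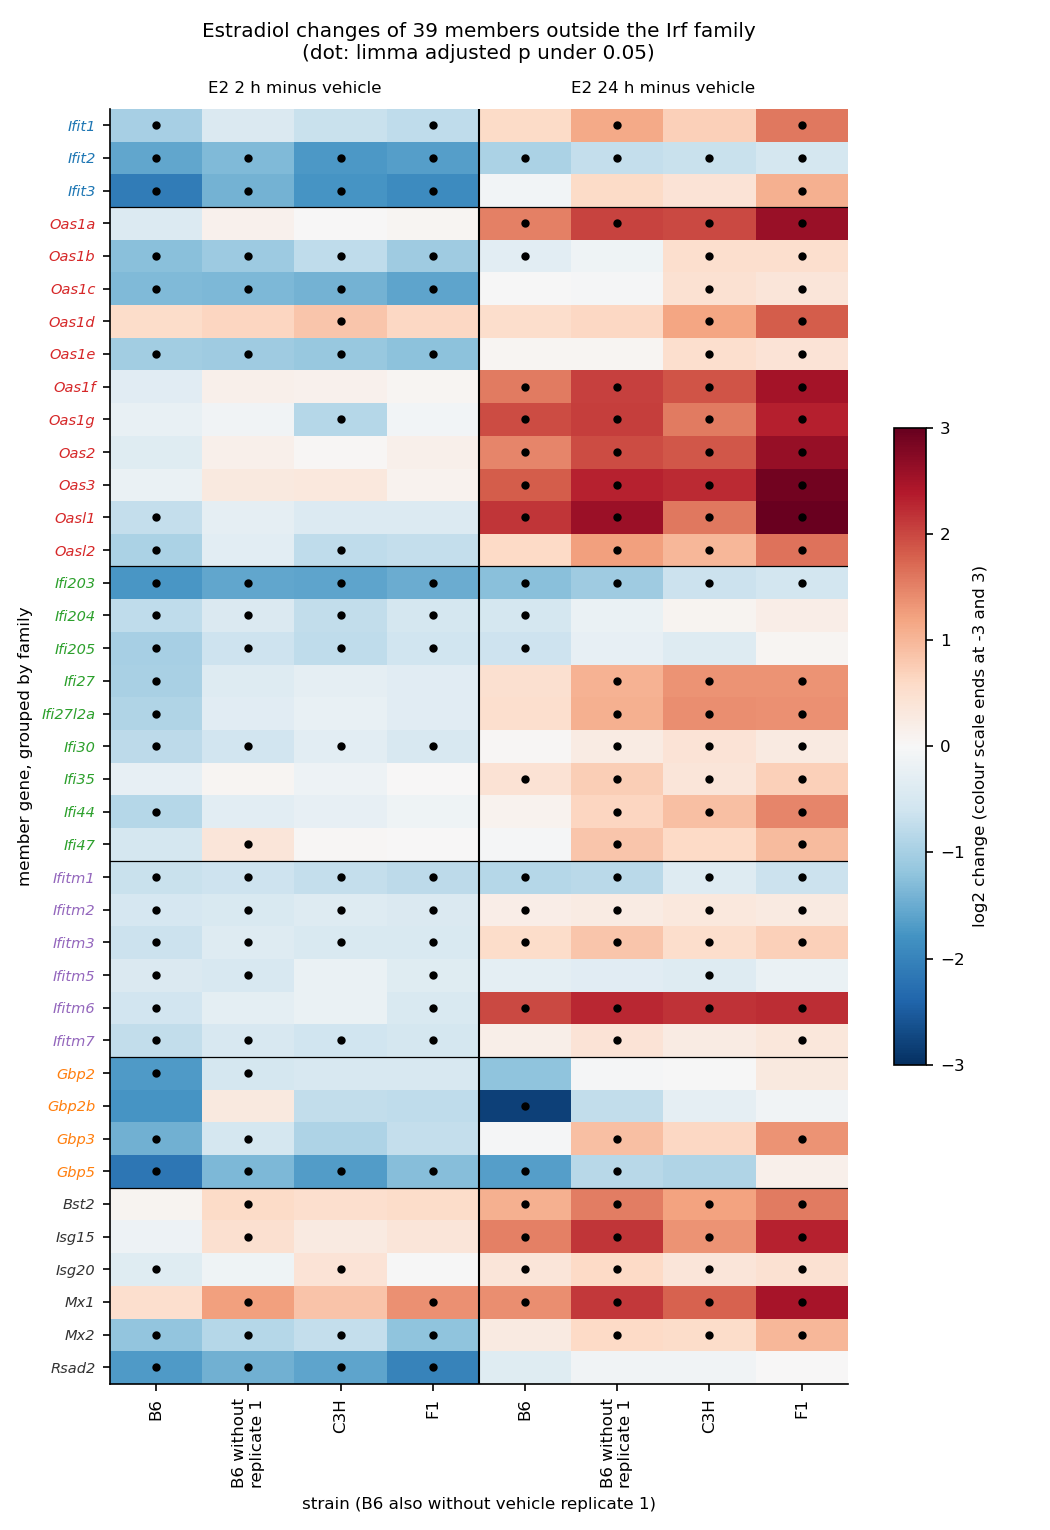
Log2 change (colour, red higher and blue lower with E2) of the 39 members outside the Irf family, one per row and grouped by family, at E2 2 h (left block) and E2 24 h (right block) against vehicle in each strain, with B6 also without vehicle replicate 1; dots mark limma adjusted p under 0.05. Ifit3 and Rsad2 are blue at 2 h in every strain and Oas3, Isg15 and Mx1 red at 24 h.

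Among the genes that bind or destroy viral RNA, the Ifit family fell at 2 h: 3 of 3 were lower in B6, 2 of 3 in C3H and 3 of 3 in F1 (2, 3 and 3 without the outlying vehicle array). Ifit3, an RNA-binding protein of the Ifit complex, stood at 0.13, −0.01 and 0.33 in B6 at E2 2 h, against 3.58, 1.63 and 1.51 in B6 vehicle. In C3H it stood at 0.61, −0.17 and −0.83 at E2 2 h, against 1.76, 1.36 and 1.82 in vehicle. In F1 it stood at −0.62, −0.53 and −0.62 at E2 2 h, against 1.25, 1.37 and 1.24 in vehicle. The E2 arrays lay below every vehicle array of their strain, and the log2 change was −2.09 in B6, −1.77 in C3H and −1.88 in F1 (SE 0.37; −1.42 in B6 without the outlying array, adjusted p = 0.0001 by limma). Ifit2, of the same complex, fell by 1.55 in B6, 1.72 in C3H and 1.65 in F1 on the log2 scale (SE 0.16).

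Rsad2 encodes viperin, a radical enzyme that makes a chain-terminating nucleotide. It stood at −1.88, −2.46 and −2.36 in B6 at E2 2 h, against 0.00, −0.67 and −0.93 in B6 vehicle. In C3H it was −2.10, −2.10 and −2.61 at E2 2 h, against −0.70, −0.68 and −0.68 in vehicle. In F1 it was −3.22, −3.04 and −3.05 at E2 2 h, against −1.16, −0.99 and −1.14 in vehicle. No E2 array overlapped a vehicle array of its strain, and the changes were −1.70 (−1.44 without the outlying vehicle array), −1.58 and −2.01 (SE 0.19). Of the Mx genes, dynamin-like GTPases, Mx2 fell by 1.18 in B6 (by 0.85 without that array), 0.72 in C3H and 1.20 in F1. Mx1 went the other way in F1, where it was called higher (log2 change 1.37, SE 0.37); its changes of 0.51 in B6 and 0.86 in C3H were called higher only without the outlying vehicle array (1.23 in B6).

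The Oas family split at 2 h. Of 11 tested genes, 5 were lower in B6, 5 in C3H and 3 in F1, and 1 was higher in C3H; without the outlying vehicle array 3, 6 and 5 were lower. Oas1c stood at −1.27, −1.50 and −1.37 in B6 at E2 2 h, against −0.06, −0.03 and −0.05 in B6 vehicle, where replicate 1 did not stand apart. Its changes were −1.33, −1.41 and −1.58 in B6, C3H and F1 (SE 0.08), and Oas1e fell by 1.04, 1.13 and 1.22. The changes of Oas1a were −0.40, 0.02 and 0.07 (SE 0.27) and those of Oas3 were −0.19, 0.31 and 0.11 (SE 0.29), none of them called. Both B6 values were negative only with the outlying vehicle array, which stood at 1.36 for Oas1a and −4.09 for Oas3. The other B6 vehicle arrays had means of −0.19 and −5.55. At E2 2 h the B6 arrays stood at −0.09, −0.23 and 0.10 for Oas1a and at −5.39, −5.54 and −4.83 for Oas3.

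The membrane proteins of the Ifitm family, which hinder fusion of entering viruses, were lower at 2 h in 6 of 6 genes in B6, 4 of 6 in C3H and 6 of 6 in F1. The Gbp family had 3 of 4 genes lower in B6 but 1 of 4 in C3H and in F1, that one being Gbp5; without the outlying vehicle array 3, 4 and 4 were lower. Gbp5 stood at −2.36, −2.06 and −2.15 in B6 at E2 2 h, against 1.62, −0.99 and −0.68 in B6 vehicle, and its change of −2.17 (SE 0.44) shrank to −1.35 without the first vehicle array. In C3H and F1 it fell by 1.68 and 1.29. The change of Gbp2, of the same family, in B6 was −1.70 (SE 0.53) with that array and −0.53 without it, beside −0.48 in C3H and −0.48 in F1.

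The Ifi genes are a mixed group: Ifi203, Ifi204 and Ifi205 encode nuclear proteins of the p200 family, and Ifi30 encodes a lysosomal thiol reductase of antigen processing. Of the 9 tested, 7 were lower at 2 h in B6, 4 in C3H and 4 in F1, and 0 were higher; without the outlying vehicle array 4, 5 and 4 were lower and 1 (Ifi47) was higher in B6. Ifi203 stood at −1.59, −1.26 and −1.31 in B6 at E2 2 h, against 0.74, 0.16 and 0.17 in B6 vehicle, with no overlap, and fell by 1.75 in B6, 1.59 in C3H and 1.48 in F1 (SE 0.16). The changes of Ifi205 were −0.99 (−0.61 without that array), −0.77 and −0.59 (SE 0.22). Ifi27 and Ifi27l2a ran in parallel on the arrays, and whether their probes tell the 2 genes apart was not tested. Ifi27 was lower in B6 (−0.97, SE 0.31) only with the outlying vehicle array.

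Of 10 Irf genes and partners tested, 4 were lower in each strain, and 1 was higher in B6, 3 in C3H and 3 in F1 (3, 4 and 4 without the outlying vehicle array). The number lower was near the share of all tested genes, 33.1% in B6 and 35.5% in C3H and in F1. Irf2, an antagonist of Irf1 at shared sites, fell by 0.88, 0.87 and 0.86. Irf4, a factor of lymphocytes, was the member called higher in all 3 strains, a share that 18.3% of all tested genes had: it stood at −3.99, −4.41 and −4.10 in B6 at E2 2 h, against −4.75, −5.30 and −5.19 in B6 vehicle, and its changes were 0.91, 0.76 and 0.69 (SE 0.21). Irf8, a factor of myeloid cells, rose by 0.74 in C3H and 0.84 in F1, and by 0.81 in B6 without the outlying vehicle array (0.42 with it, not called). Without that array Irf1, Irf8, Bst2 and Mx1 joined Irf4, making 5 members higher in all strains (18.3% of all tested genes then too).

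**Figure D3:**
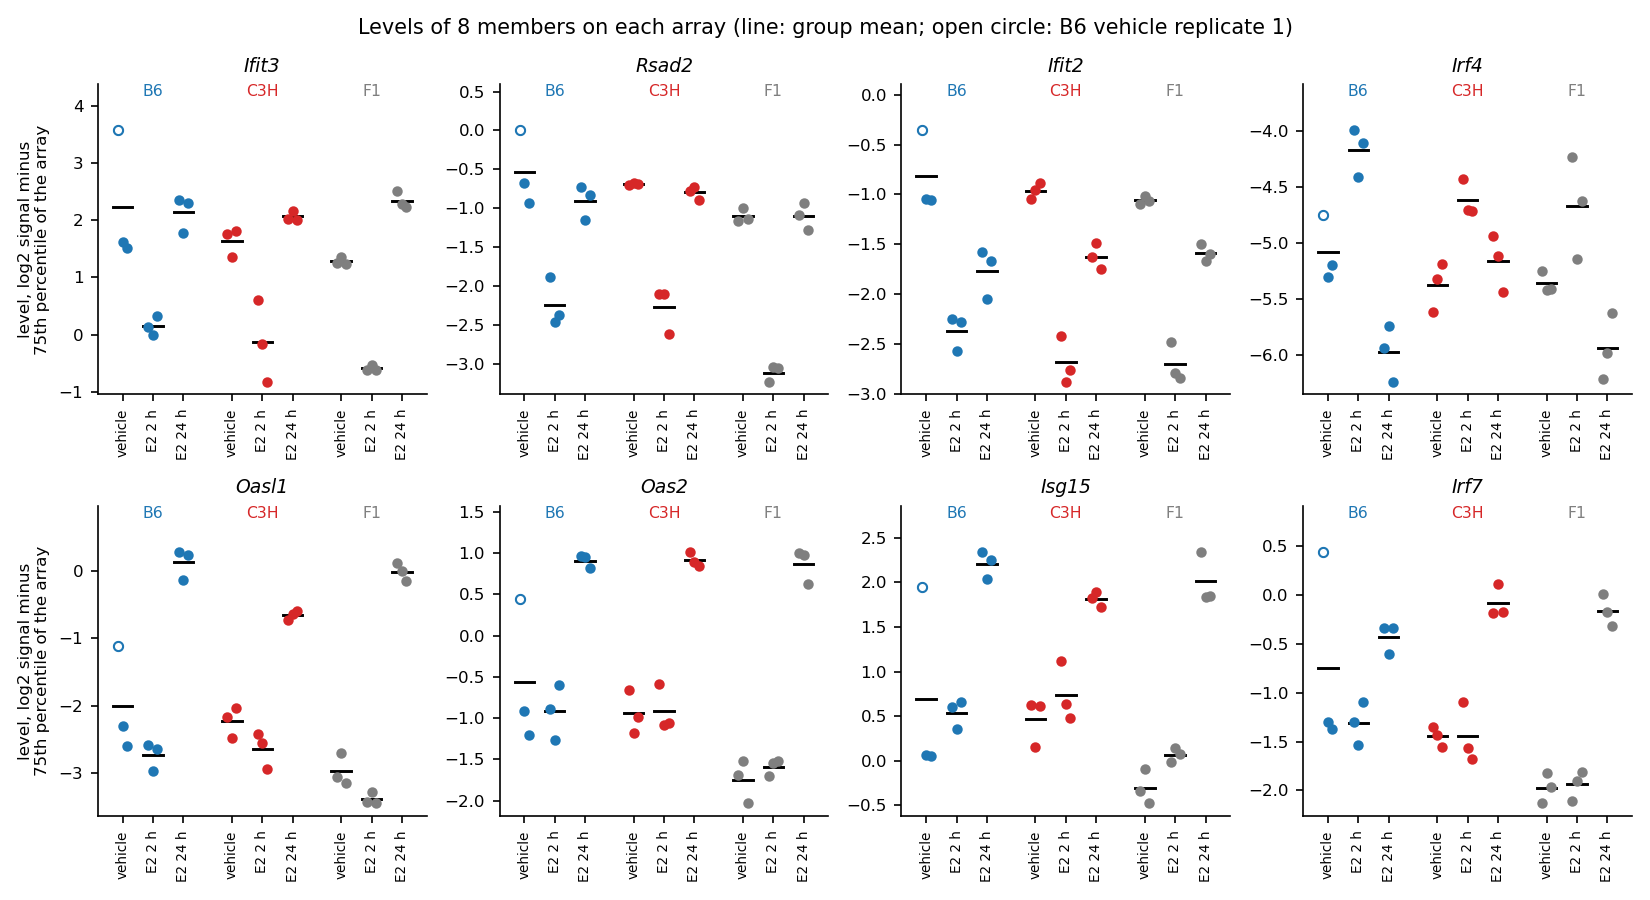
Levels of 8 members on each array (points) with the group mean (line) in vehicle, at E2 2 h and at E2 24 h in each strain, as log2 signal relative to the array's 75th percentile; the open circle is replicate 1 of B6 vehicle. Ifit3 and Rsad2 are lowest at 2 h, and Oasl1, Oas2 and Isg15 are higher at 24 h than in the other vehicle arrays.

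The second comparison asks where these genes stood 24 h after the injection, when the uterine epithelium is growing. Here more members were higher than lower in C3H and F1: 25 were higher and 9 lower in C3H (27.1% and 40.1% of all tested genes), 30 higher and 9 lower in F1 (31.8% and 36.7%), and 14 higher and 15 lower in B6 (30.8% and 37.1%). Leaving out the outlying vehicle array brought B6 to 25 higher and 11 lower (30.6% and 36.5%), C3H to 29 and 11, F1 to 31 and 10. In B6, 19 members in all were called with only the B6 groups in the fit and 12 with slide as a fixed term; no slide held both 24 h and vehicle arrays of a strain. The median member change was 0.03 in B6 (0.40 without the array), 0.42 in C3H and 0.46 in F1, against −0.05, −0.16 and −0.03 for all tested genes. Higher in all 3 strains were 14 members, where 23.0% of all tested genes were: Oas1a, Oas1f, Oas1g, Oas2, Oas3, Oasl1, Isg15, Isg20, Mx1, Bst2, Ifitm2, Ifitm3, Ifitm6 and Ifi35. Without the array they were 25 (23.2%), among them Irf7, Mx2, Oasl2, Ifit1, Ifi27, Ifi27l2a, Ifi44 and Ifi47. Against 2 h rather than vehicle, a comparison that shares the 2 h arrays with the first, the members higher numbered 32 in B6, 33 in C3H and 36 in F1 (35.5%, 33.9% and 37.6% of all tested genes) and those lower 5, 5 and 4 (33.1%, 36.7% and 30.8%), with medians of 0.88, 0.95 and 1.15.

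The Oas family had 6 of 11 genes higher in B6, 11 in C3H and 11 in F1, with median changes of 1.47 (1.97 without the outlying array, when 7 were higher), 1.55 and 2.33. Oasl1, an Oas-like protein that in the mouse restrains translation of Irf7, stood at 0.28, −0.13 and 0.23 in B6 at E2 24 h, against −1.12, −2.29 and −2.60 in B6 vehicle. In C3H it stood at −0.72, −0.64 and −0.59 at E2 24 h, against −2.16, −2.48 and −2.03 in vehicle. In F1 it stood at 0.12, −0.01 and −0.16 at E2 24 h, against −3.05, −2.70 and −3.15 in vehicle. Every 24 h array lay above every vehicle array of its strain, and the changes were 2.13 in B6, 1.58 in C3H and 2.95 in F1 (SE 0.25; 2.58 in B6 without the outlying array).

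Oas1a, a synthetase that activates RNase L, stood at 1.92, 1.81 and 1.78 in B6 at E2 24 h, against 1.36, −0.12 and −0.26 in B6 vehicle. In C3H it was 2.10, 2.26 and 2.15 at E2 24 h, against 0.39, −0.01 and 0.22 in vehicle. In F1 it was 2.19, 2.10 and 1.89 at E2 24 h, against −0.48, −0.33 and −0.77 in vehicle. The 24 h arrays of the strains lay close together while the vehicle arrays did not, and the changes were 1.51, 1.97 and 2.58 (SE 0.27). Oas3 rose by 1.81, 2.25 and 2.90, Oas2 by 1.47, 1.86 and 2.61, and Oas1f by 1.57, 1.89 and 2.50. Oas1d and Oas1g were dim: Oas1g was at least 1.155-fold higher in B6, 1.04-fold in C3H and 1.22-fold in F1 (adjusted p under the threshold in each), and the probe of Oas1d also lists Oas1h as a target. These bounds set the mean of the bright group against the lowest signal counted as above background on each dim array, or the dim probe's own where that is higher.

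Isg15, the ubiquitin-like modifier, stood at 2.34, 2.04 and 2.25 in B6 at E2 24 h, against 1.95, 0.06 and 0.05 in B6 vehicle. In C3H it was 1.82, 1.89 and 1.73 at E2 24 h, against 0.62, 0.16 and 0.62 in vehicle, and in F1 it was 2.34, 1.84 and 1.85 at E2 24 h, against −0.34, −0.09 and −0.48 in vehicle. Its changes were 1.52 in B6 (2.15 without the outlying array), 1.35 in C3H and 2.31 in F1 (SE 0.32). Bst2, the tether that holds budding virus at the cell surface, stood at 5.50, 5.30 and 5.56 in B6 at E2 24 h, against 5.36, 3.86 and 3.98 in B6 vehicle, so that the groups overlapped through the one array; its changes were 1.06, 1.21 and 1.56 (SE 0.24). Mx1 rose by 1.39 (2.11 without the outlying array), 1.76 and 2.47, and Ifitm6 by 1.97, 2.17 and 2.21. At 24 h 3 of 6 Ifitm genes were higher in B6, 3 in C3H and 4 in F1, and 1, 2 and 1 were lower. Of the 9 Ifi genes 1 was higher in B6, 5 in C3H and 6 in F1, and 3, 1 and 1 were lower; without the outlying vehicle array 6, 6 and 6 were higher and 1, 2 and 1 lower. Ifi27 stood at 4.05, 3.87 and 4.12 in B6 at E2 24 h, against 4.71, 2.94 and 2.98 in B6 vehicle, and its changes were 0.47 in B6 (1.05 without the first vehicle array), 1.36 in C3H and 1.36 in F1. In the Gbp family 2 of 4 genes were lower in B6 and 1 was higher in F1; without that array 1, 1 and 2 were higher and 1, 1 and 0 lower in B6, C3H and F1, Gbp3 being higher in each. Irf7, the factor that amplifies type I interferon production, stood at −0.34, −0.60 and −0.34 in B6 at E2 24 h, against 0.44, −1.30 and −1.38 in B6 vehicle. Its B6 change was 0.32 with that array, not called, and 0.91 without it, beside rises of 1.36 in C3H and 1.81 in F1 (SE 0.30).

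Ifit2 and Rsad2, lower at 2 h, were not called higher at 24 h. In the Ifit family 1 gene was lower in each strain and 2 were higher in F1; without the outlying array 1 was also higher in B6 and in C3H. Ifit2 was still lower at 24 h by 0.95 in B6, 0.66 in C3H and 0.53 in F1 (SE 0.16), one of 8 members lower in all 3 strains with or without the outlying array, where 29.0% and 29.3% of all tested genes were. The changes of Rsad2 were −0.37, −0.11 and 0.00 (SE 0.19), not called. In B6 it stood at −0.72, −1.15 and −0.82 at E2 24 h, against 0.00 on the outlying vehicle array and a mean of −0.80 on the others. Among the others were Irf2, Irf2bp2, Ifi203 and Ifitm1; of the 10 Irf genes and partners, 7 were lower in B6, 5 in C3H and 6 in F1. Irf2bp2, a corepressor named for binding Irf2, stood at 1.97, 1.88 and 2.21 in B6 at E2 24 h, against 3.70, 3.50 and 3.52 in B6 vehicle, and fell by 1.55, 1.51 and 1.48 (SE 0.10).

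Other interferon genes gave the setting of these changes. Of 5 inhibitors of the pathway 4 were higher at 2 h in every strain. Of all tested genes 23.1%, 24.8% and 23.6% were higher in B6, C3H and F1. Among the inhibitors were Socs1 (log2 change 3.26 in B6, 4.04 in C3H and 4.03 in F1) and Socs3 (3.57, 3.94 and 3.62), suppressors of Jak kinase signalling. Of 11 receptor and signalling genes, 8 were lower at 2 h in B6, 7 in C3H and 7 in F1, and 1 was higher in each strain. The shares of all tested genes lower were 33.1%, 35.5% and 35.5%. Ifnar1, a chain of the type I receptor through which interferon epsilon acts, fell by 0.47, 0.51 and 0.44, and Ifnlr1, of the type III receptor, fell by 1.21, 1.10 and 1.32.

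Among the ligands Ifne, interferon epsilon, was lower at 2 h and higher at 24 h in each strain. At E2 24 h it stood at −0.17, −0.52 and −0.23 in B6, against −4.83, −5.11 and −4.97 in B6 vehicle. In C3H it was −0.58, −0.18 and −0.40 at E2 24 h, against −4.85, −5.67 and −5.57 in vehicle, and in F1 it was −0.24, −0.28 and −0.23 at E2 24 h, against −5.00, −4.73 and −5.00 in vehicle. The groups were far apart in each strain, and the changes at 24 h were 4.66, 4.98 and 4.66 (SE 0.29). At 2 h its changes were −1.89, −1.29 and −1.51, with the probe well above background on only 1, 2 and 2 of the 3 arrays in B6, C3H and F1. Of 10 ligand genes tested out of 19 listed, 0 were higher at 2 h, with 3 lower in B6, 3 in C3H and 4 in F1. The numbers lower were near the shares of all tested genes, 33.1%, 35.5% and 35.5%. At 24 h the numbers higher were 2, 2 and 3 and the numbers lower 3, 5 and 2. All tested genes had 30.8%, 27.1% and 31.8% higher and 37.1%, 40.1% and 36.7% lower at 24 h.

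**Figure D4:**
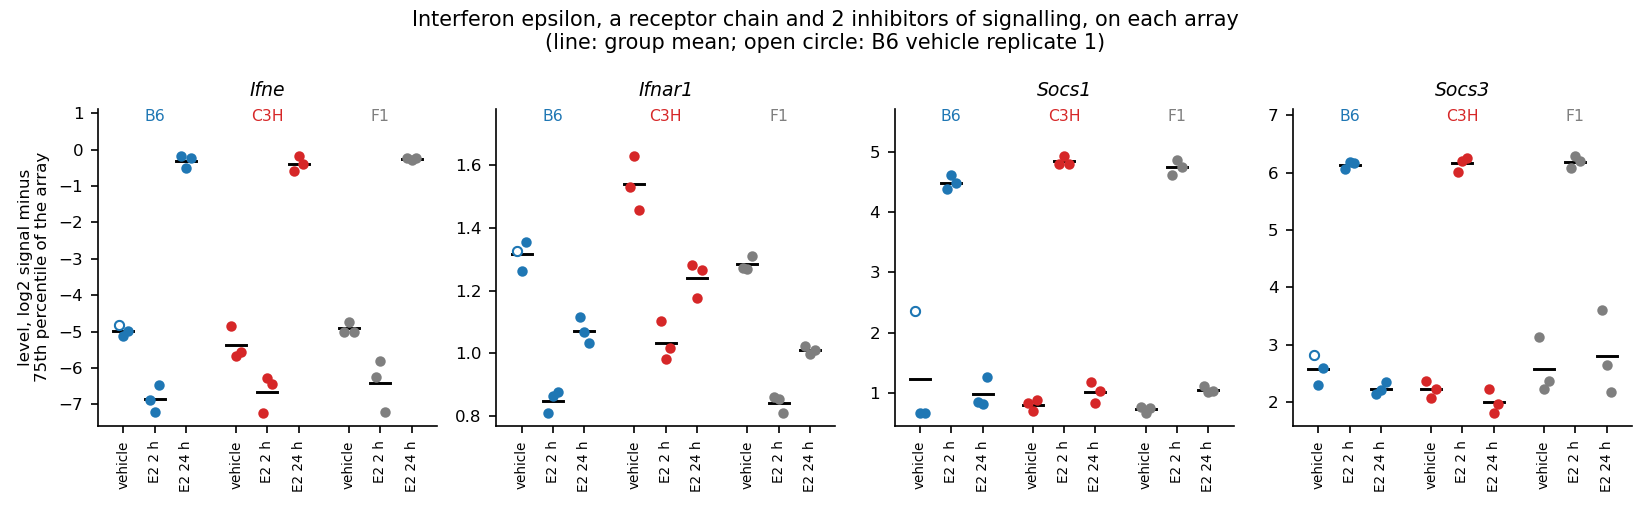
Levels of Ifne, Ifnar1, Socs1 and Socs3 on each array (points) with the group mean (line) in vehicle, at E2 2 h and at E2 24 h in each strain (log2 signal relative to the array's 75th percentile; open circle, replicate 1 of B6 vehicle). Ifne is between −0.58 and −0.17 at 24 h and at −4.73 or below in vehicle; Socs1 and Socs3 are raised at 2 h.

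A list of 48 other interferon-induced genes lay outside these families, and 40 of them were tested. At 2 h 19 of the 40 were lower in B6, 10 in C3H and 8 in F1, with 0, 1 and 1 higher. Of all tested genes 33.1%, 35.5% and 35.5% were lower, a larger share than that of the list in C3H and F1. Without the outlying array 15, 23 and 19 were lower and 4, 3 and 3 higher at 2 h. In C3H and F1 the share of the list was then the larger one, as 7967 and 7999 of all 21866 genes were lower. At 24 h 9, 15 and 19 of the list were higher, where 30.8%, 27.1% and 31.8% of all tested genes were. Lower at 24 h were 6, 2 and 2, where 37.1%, 40.1% and 36.7% of all tested genes were. Without the outlying array 21, 19 and 27 were higher and 4, 5 and 4 lower. Marker genes of other cells moved too. All 7 epithelial markers were higher at 24 h in each strain (medians 1.80, 1.39 and 1.59), their summed level being 8.21 to 8.33 at E2 24 h against 6.84 to 6.90 in vehicle in B6, 7.83 to 8.02 against 6.88 to 7.04 in C3H, and 8.08 to 8.30 against 6.91 to 7.15 in F1. Natural killer cell markers were lower at 24 h in 8, 5 and 7 of 8. Smooth muscle markers were higher at 24 h in 5, 5 and 6 of 6, with 0 lower. Endothelial markers were lower in 6, 3 and 6 of 7, with 0 higher, and stromal markers were split, 3 higher and 3 lower in each strain. The part of these cells in the member changes was not tested.

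The third comparison sets fixed differences between the strains beside the effects of E2. The arrays filled the slides group by group, with B6 on slides 1 to 3, C3H on slides 3 to 5 and F1 on slides 5 to 7. A strain difference averaged over treatments therefore cannot be told apart from a difference between slides. The same holds for the E2 effects in C3H at both times and in F1 at 24 h. Treatment accounted for more than 50% of the variation of group means in 44 of the 49 members and strain in 2, Gbp2b (96.0%) and Ifi205 (87.1%); the median shares were 86.4% for treatment, 6.81% for strain and 4.85% for their interaction. Without the outlying array treatment passed 50% in 47 and the medians were 91.2%, 4.66% and 2.52%. These shares were taken for the members alone, and whether they differ from those of all tested genes was not tested. Averaged over treatments, 4 members were higher and 5 lower in C3H than in B6 (40.6% of all tested genes were called), 1 higher and 17 lower in F1 than in B6 (33.5%), and 3 higher and 11 lower in F1 than in C3H (32.7%). Without that array these became 12 and 6, 2 and 15, and 3 and 23. A difference called in the same direction in vehicle, at 2 h and at 24 h was counted as fixed. Between C3H and B6 that held for Gbp2b, higher in C3H, as 5.19% of all tested genes were, and for Ifi203 and Ifi205, lower in C3H, as 5.79% were.

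These 60-base probes gave the strain differences, and they are printed as in the deposited files, with their coordinates in build mm7 per the file headers.
Gbp2b probe (chr3:142511872-142511931, listed as plus strand): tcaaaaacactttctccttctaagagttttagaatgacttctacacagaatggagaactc
Ifi203 probe (chr1:173899631-173899690, listed as minus strand): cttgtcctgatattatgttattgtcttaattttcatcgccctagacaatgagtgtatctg
Ifi205 probe (chr1:173981003-173981062, listed as minus strand): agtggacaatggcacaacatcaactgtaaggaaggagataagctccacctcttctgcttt
Whether the target sequence of C3H differs from that of B6 under a probe was not tested, and a difference there and a difference in RNA cannot be told apart from one probe.

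Gbp2b, a guanylate-binding GTPase, stood at 0.42, 0.65 and 0.52 in C3H vehicle, against −2.13, −8.15 and −8.46 in B6 vehicle. At E2 2 h it stood at −0.13, −0.33 and −0.16 in C3H, against −9.10, −7.22 and −7.72 in B6. At E2 24 h it stood at 0.40, 0.24 and 0.18 in C3H, against −9.26, −9.16 and −8.72 in B6. C3H and B6 did not overlap, and replicate 1 of B6 vehicle was far above the other B6 arrays. C3H was at least 97.5-fold higher at 2 h and at least 142-fold higher at 24 h than B6, where the probe was not well above background. F1 stood at −0.36, −0.63 and −0.95 at E2 24 h, closer to C3H, and was at least 45.3-fold and 74.9-fold higher than B6 at 2 and 24 h.

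Among the p200 genes, Ifi205 stood at 0.88, 0.83 and 1.03 in C3H at E2 24 h and at 2.82, 2.35 and 2.10 in F1, against 3.03, 2.89 and 3.06 in B6. In vehicle it stood at 1.32, 1.26 and 1.32 in C3H and at 2.60, 2.37 and 2.15 in F1, against 4.36, 3.22 and 3.26 in B6. F1 lay between its parent strains in both, and the mean difference from B6 was −2.16 (SE 0.13) in C3H and −0.89 in F1. A second Ifi205 probe gave 0.52 for C3H minus B6, the opposite sign, and the probe used also lists Ifi204 and Ifi211 as targets. Ifi203 was lower in C3H by 0.99 (SE 0.09), and a second probe gave −1.22. The other probe gave −7.97 and was not well above background in 1 group, so this value has no exact size. The Ifi203 probes shared a direction but not a size. Without the outlying array Ifi44 (0.88) and Mx2 (0.70) also counted as fixed and higher in C3H than in B6, but a second Ifi44 probe gave −0.63 where the one used gave 0.71 over all arrays.

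**Figure D5:**
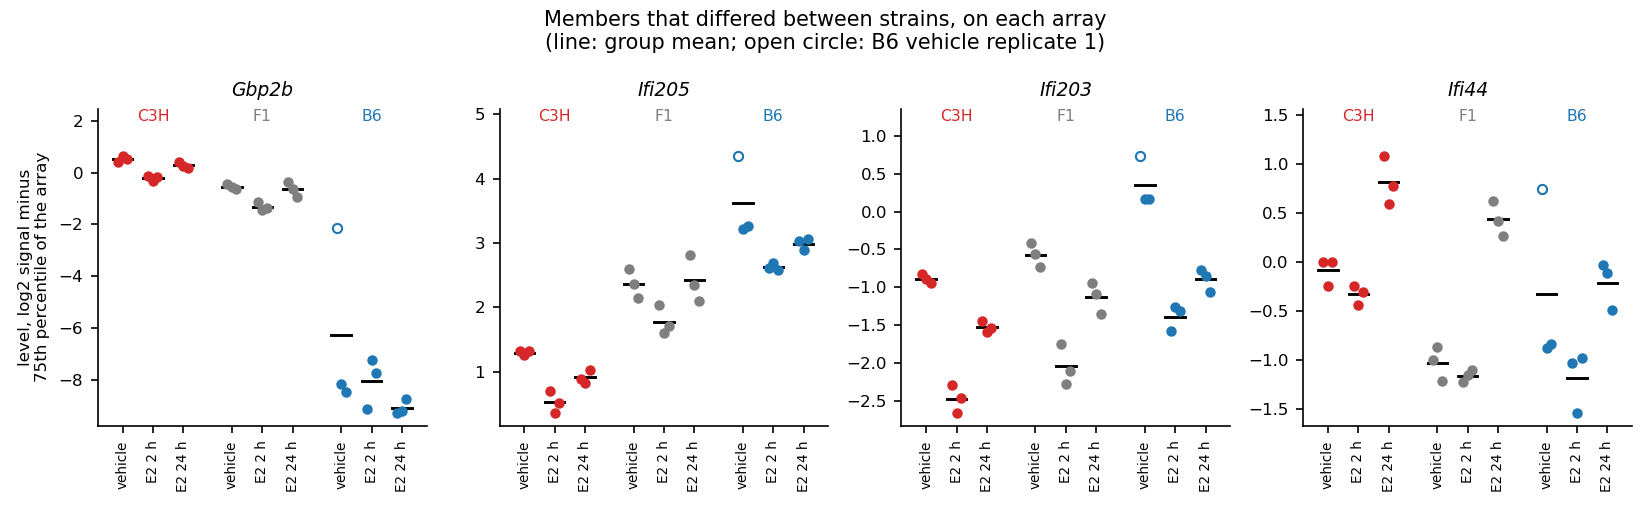
Levels of Gbp2b, Ifi205, Ifi203 and Ifi44 on each array (points) with the group mean (line) in vehicle, at E2 2 h and at E2 24 h, for C3H, F1 and B6 (log2 signal relative to the array's 75th percentile; open circle, replicate 1 of B6 vehicle). Gbp2b in C3H and F1 lies far above B6 except on replicate 1 of B6 vehicle, and Ifi205 in F1 lies between C3H and B6.

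F1 and C3H were also compared within each treatment. In vehicle 1 member was higher and 4 lower in F1 than in C3H (14.3% of all tested genes were called), at 2 h 1 and 8 (18.9%) and at 24 h 1 and 1 (14.9%), with medians of −0.29, −0.20 and −0.01. Without the outlying B6 vehicle array, which left these log2 differences the same, the counts were 1 and 17, 2 and 20, and 6 and 5. Oas3 stood at −6.28, −5.78 and −6.14 in F1 vehicle, against −5.07, −5.21 and −5.22 in C3H vehicle, a difference of −0.90 (SE 0.29), and at 24 h the difference was −0.25. The difference of the 2 responses, 0.65 (SE 0.41), was not called, so a larger E2 response of Oas3 in F1 was not shown. Against B6, F1 had 1 member higher and 11 lower in vehicle (12.5%), but 1 and 4 without the outlying array.

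Tested directly, the E2 response differed between strains in few members. At 2 h 1 member differed between C3H and B6 (2.16% of all tested genes), 0 between F1 and B6 (0.599%) and 0 between F1 and C3H (0.229%). The 1 was Isg20, an exonuclease, which rose by 0.40 in C3H and fell by 0.36 in B6 (−0.12 in B6 without the outlying array, not called). At 24 h 5 members differed between C3H and B6 (18.7%), 1 between F1 and B6 (1.9%) and 1 between F1 and C3H (3.7%). Those of C3H against B6 were Oas1b, Oas1c, Oas1e, Ifitm1 and Irf4, that of F1 against B6 was Oas1b, and that of F1 against C3H was Oasl1, whose response was 1.38 larger in F1. Without the outlying array 7, 2 and 4 members differed: Isg15 (−0.81) and Oasl1 (−1.0) responded less in C3H than in B6, Irf7 (0.90) responded more in F1 than in B6, and Isg15 (0.97), Gbp3 (0.73) and Ifi35 (0.37) responded more in F1 than in C3H.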

How the data were processed

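Total RNA from mouse uterus was labelled with Cy3 and hybridised to one-colour Agilent arrays, per the labels. The deposited files hold intensity values of the scanner, extracted with Agilent Feature Extraction 9.5 per the submitters' processing notes (9.5.3.1 per the file headers); the processed signal is background-corrected, per the file headers. Each of the 27 arrays was scaled as log2 intensity minus its 75th percentile, starting from the deposited processed signal. Control spots and outlier spots were left out, spots of a probe were averaged, and the brightest passing probe was used per gene; genes not well above background in any whole group were left out. All 9 groups were fitted together with limma 3.58.1 in R 4.3.3 (18 residual degrees of freedom), without a replicate block, and p-values were adjusted by Benjamini-Hochberg over all 21866 genes. The fit was tested on simulated data for F1 at E2 2 h: of 50 genes each changed by 0.5, 1, 2 and 3 (log2), 50%, 76%, 96% and 98% were called, with 6 false calls. Replicate numbers do not pair the samples: deviations of same-numbered arrays had a median correlation of 0.012 over 108 pairs, with 23 over 0.1. The named genes were the members called in the same direction in all 3 strains, those with fixed strain differences and those with a called difference of response, together with pathway and marker lists of which the genes called in all 3 strains were named; other members with values, such as Irf7, Irf8 and Gbp2, were chosen after their values were seen. Members and lists were chosen with earlier results of these data known. One member is counted but not reported by name or value here.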

Additional observations from a re-analysis of the deposited data

Results flagged for a closer look

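The E2 response of 7 members differed between strains in the limma test of the difference itself, in 8 comparisons. At 2 h the log2 change of Isg20 in C3H minus that in B6 was 0.76. At 24 h the same difference was 0.47 for Ifitm1, which fell by 0.40 in C3H and by 0.87 in B6 and so responded less in C3H, and it was 0.47 for Oas1c, 0.44 for Oas1e, 0.81 for Oas1b and 1.10 for Irf4. Oas1b was called lower in B6 at 24 h only with replicate 1 of B6 vehicle, and its change in F1 minus that in B6 was 0.82. Irf4 stood at −4.94, −5.12 and −5.43 in C3H at E2 24 h, against −5.62, −5.32 and −5.18 in C3H vehicle, and these arrays overlapped; in B6 it stood at −5.94, −5.74 and −6.24 at E2 24 h, against −4.75, −5.30 and −5.19 in B6 vehicle. The Oasl1 response was 1.38 larger in F1 than in C3H. Leaving out single arrays in turn ended the Isg20 call for 9 of 12 arrays (0.524 to 0.898), the Oas1b call of F1 against B6 for 5 of 12 (0.643 to 0.941) and the Oasl1 call for 9 of 13 (1.28 to 1.51). Without replicate 1 of B6 vehicle the Ifitm1 difference was 0.41 and no longer passed (adjusted p = 0.0537 by limma).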

How the results depend on the processing

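Of 134 changes named for single members, 96 kept their direction and call under every alternative run and 38 lost the call or reversed under at least 1. With normexp background correction and quantile normalization Ifitm2 at 24 h reversed in B6 (−0.0961) and F1 (−0.0736); the cause was not tested. Of 338 counts of called members under alternatives, 281 lay within 1.5 times the count with all arrays. With only the groups compared in the fit, and so fewer arrays, 20 members were called in B6 at 2 h and 19 at 24 h, 11 between F1 and B6, 26 between F1 and C3H, and of response differences 0 (2 h, C3H against B6), 0 (24 h, F1 against B6) and 2 (24 h, F1 against C3H). With slide as a fixed term there were 21 in B6 at 2 h, 16 in F1 at 2 h and 12 in B6 at 24 h; the other comparisons could not be fitted with slide except the response at 2 h in F1 against B6. The count of 1 response difference at 2 h between C3H and B6 became 0 with the mean of all probes and 0 with no filter on dim probes. Normexp with quantile normalization gave 3 response differences at 24 h between F1 and B6 and 0 between F1 and C3H. For the other counts outside 1.5 times the cause was not tested. Chosen after seeing the data, leaving out both replicate 1 of B6 vehicle and replicate 1 of C3H at 24 h gave 17 strain differences between C3H and B6, 26 between F1 and C3H, and response differences at 24 h of 2 (F1 against B6) and 6 (F1 against C3H). Leaving out the first of these with median centring gave 17, 26 and, for the response in F1 against C3H, 5. Counting genes that carry such a name today gave 2 response differences at 2 h between C3H and B6, 1 at 2 h between F1 and B6 and 2 at 24 h between F1 and B6.

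Leaving out single arrays gave 28 to 36 members at 2 h in B6, 24 to 36 in C3H and 21 to 34 in F1, and 25 to 36, 29 to 40 and 35 to 41 at 24 h. Strain differences ranged from 9 to 18 (C3H against B6), 11 to 21 (F1 against B6) and 14 to 26 (F1 against C3H). Response differences ranged from 0 to 1, 0 to 0 and 0 to 0 at 2 h and from 4 to 9, 0 to 3 and 0 to 4 at 24 h for C3H against B6, F1 against B6 and F1 against C3H. With the replicate number as a block, although the numbers do not pair the samples, 32 members were called at 2 h in B6, 30 in C3H and 27 in F1, and no count left 1.5 times its value. Single arrays ended 15 named calls, among them Gbp5, Ifi204, Ifi205, Ifitm3 and Irf4 in F1 at 2 h, Ifitm3 in C3H at 2 h, and Ifi35 and Isg20 in B6 and C3H and Ifitm2 in B6 at 24 h. The number of arrays, 3 per group, limits the precision, and probes not well above background (Oas1d, Oas1g, and Gbp2b in B6) give bounds only.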
